A study of Mus musculus with 4 samples.

Results

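The inner arm dyneins are motor complexes of motile cilia, and 9 of their genes were followed here: the heavy chain genes Dnah1, Dnah2, Dnah3, Dnah6, Dnah7a, Dnah7c, Dnah10 and Dnah12 and the light chain gene Dnali1. They were chosen by name, with earlier results of these data known, out of 30674 genes that could be named on the array. Each was read by 1 probe set. Transcript levels were measured on Affymetrix arrays in freshly dissected trachea and oviduct of mice on a mixed background of C57BL/6 and 129. There were 4 groups with 1 array each: Gemc1-null trachea and WT trachea from males of 39 days, and Gemc1-null oviduct and WT oviduct from females of 65 days. Gemc1, now named Gmnc, encodes a relative of geminin that acts at the top of multiciliated cell differentiation, and the title of the series asks what part it plays there. No treatment was given, and the labels do not state which exons the null allele lacks. Organ, sex and age cannot be told apart between trachea and oviduct.

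Motile cilia beat because dynein motors on one doublet microtubule of the axoneme slide it past its neighbour. The outer arms set the beat frequency, and the inner arms shape the bend. Heavy chains carry the motor head that hydrolyses ATP, while intermediate and light chains hold the complex together and fix it to the doublet. Dnah2 and Dnah10 encode the paired heavy chains of the inner arm complex called dynein f in Chlamydomonas. Dnah1, Dnah3, Dnah6, Dnah7a, Dnah7c and Dnah12 encode heavy chains of inner arms with a single motor head. Dnali1 corresponds to p28, a light chain of such arms in Chlamydomonas. In the airway, multiciliated cells move mucus, and in the oviduct they help to move the egg and the embryo.

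All levels are log2 RMA signals, so that a difference of 1 is a 2-fold change, and all genotype differences are the Gemc1-null array minus the WT array of the same organ. Within an organ there was 1 array per group, so a difference carries no replicate error and no test. The arrays are called by their labels: Gmnc itself stood at 4.63 on the Gemc1-null trachea array against 5.90 on the WT trachea array, but at 8.86 on the Gemc1-null oviduct array against 6.11 on the WT oviduct array, which goes against that label. A probe set that reads exons kept by the allele would check nothing. The 5222 negative-control probe sets of the array design had medians from 5.74 to 5.98 over the 4 arrays. Both trachea values of Gmnc were below the negative-control median of their array (5.74 for Gemc1-null and 5.98 for WT). The trachea difference of Gmnc therefore does not check the label either. The Gemc1-null trachea array also stood apart in its tissue make-up (skeletal muscle markers were higher in 9 of 9 and squamous epithelium markers in 5 of 5 genes by at least 2-fold), so each inner arm gene's difference in trachea is given with its difference in oviduct, which does not rest on that array. Fewer multiciliated cells and less dynein RNA per cell cannot be told apart in whole organs.

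The start regions of 4 of these genes are shown because they hold letters known from promoters of cilia genes, where RFX transcription factors bind an inverted repeat called the X-box. The RefSeq promoter table (GRCm38.p6) held a window of 300 bases, from 250 before to 50 after the start site, for 8 of the 9 genes. Dnah3 had no entry. The windows are printed from 5′ to 3′ in the direction of the gene, and capitals mark the inverted repeat or the half-site GTTGCC.
Dnah6, chr6:73221582-73221881, minus strand: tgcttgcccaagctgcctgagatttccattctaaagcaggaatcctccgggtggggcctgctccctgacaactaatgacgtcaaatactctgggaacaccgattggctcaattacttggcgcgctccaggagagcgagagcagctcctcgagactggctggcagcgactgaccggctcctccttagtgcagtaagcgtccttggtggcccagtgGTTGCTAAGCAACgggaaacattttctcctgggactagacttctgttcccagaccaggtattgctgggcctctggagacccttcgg
Dnah7a, chr1:53706735-53707034, minus strand: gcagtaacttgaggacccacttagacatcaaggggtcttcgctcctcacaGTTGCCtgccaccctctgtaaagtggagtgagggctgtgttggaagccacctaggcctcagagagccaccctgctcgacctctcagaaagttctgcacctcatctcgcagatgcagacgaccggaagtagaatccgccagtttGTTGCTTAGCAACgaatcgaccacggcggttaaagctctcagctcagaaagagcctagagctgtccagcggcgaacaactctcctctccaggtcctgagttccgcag
Dnah7c, chr1:46425268-46425567, plus strand: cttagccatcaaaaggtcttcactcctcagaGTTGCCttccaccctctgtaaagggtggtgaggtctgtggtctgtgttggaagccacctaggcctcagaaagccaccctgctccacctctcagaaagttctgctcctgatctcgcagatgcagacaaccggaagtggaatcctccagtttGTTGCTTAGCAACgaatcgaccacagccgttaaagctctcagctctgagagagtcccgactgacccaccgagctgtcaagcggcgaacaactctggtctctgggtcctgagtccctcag
Dnah10, chr5:124724835-124725134, plus strand: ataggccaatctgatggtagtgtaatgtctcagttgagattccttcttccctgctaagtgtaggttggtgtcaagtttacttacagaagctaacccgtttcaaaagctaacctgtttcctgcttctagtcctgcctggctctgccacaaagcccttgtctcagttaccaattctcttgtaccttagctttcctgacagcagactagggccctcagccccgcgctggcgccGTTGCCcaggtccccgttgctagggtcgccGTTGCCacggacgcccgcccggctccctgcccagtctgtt

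The inverted repeat, searched as GTTGC and GCAAC with a gap of 2, 3 or 4 bases, was found in 3 of 8 windows, those of Dnah6, Dnah7a and Dnah7c. It lay in 0.411% of all 32851 promoter windows of the table. The 3 of 8 cannot be weighed against that share, since the form of the repeat was chosen with these windows known. The windows of Dnah7a and Dnah7c are also close copies (79.6% identical). They are therefore not 2 independent matches, for this repeat or for the half-site below. Dnah7a and Dnah7c shared the letters GTTGCTTAGCAAC, beginning 57 bases before the start site in Dnah7a and 69 bases before it in Dnah7c. Dnah6 held GTTGCTAAGCAAC, beginning 36 bases before its start site. This form of the repeat was chosen after the sequences had been read, and another form of it (GTNNCC and GGNNAC, gap of 1, 2 or 3 bases) was found in 0 of 8 windows and in 3.49% of all windows. The half-site GTTGCC, searched on both strands, was found in 3 of 8 windows (Dnah7a, Dnah7c and Dnah10) and in 12.5% of all windows. In the Dnah10 window it occurred at -20 and at 10 relative to the start site. The forkhead letters TGTTTAC, the core bound by FOXJ1 relatives, were found on either strand in 0 of 8 windows and in 3.65% of all windows. A match of letters is not a site shown to be bound, and no match says only that these letters are not in these windows.

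Dnah7a and Dnah7c lie on mouse chromosome 1, as does another copy, Dnah7b. Their promoter windows were 79.6% identical over 319 aligned positions, while the other 27 pairs among the 8 windows were 43.2 to 51.4% identical. The chromosome 1 copies are closely related in sequence, so probes may read more than 1 of them, and the values of Dnah7a and Dnah7c are uncertain as separate genes.

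Each of the 9 inner arm dynein genes followed here was at least 2-fold lower on the Gemc1-null array in both organs. In trachea 9 of 9 genes were lower, with a median difference of -2.03 (4.08-fold lower). This compares with 7.74% of 20141 genes past the level filter that were at least 2-fold lower, and with a median of 0.03 over all of them. In oviduct 9 of 9 were lower, with a median difference of -1.72 (3.29-fold lower), beside 2.75% of 19691 genes and an overall median of 0.05. All 9 were lower in both organs, against 1.31% of 18862 genes that passed the filter in both. None of the 9 was at least 2-fold higher, against 6.34% of genes in trachea and 0.813% in oviduct. The filter asked for a level at or above the array's median on at least 1 array of the organ. All 9 genes passed it in both organs, in each organ 5 of them through the WT array alone. These were Dnah3, Dnah6, Dnah7a and Dnah12 in both organs, with Dnah7c in trachea and Dnah10 in oviduct. Since all 9 passed, leaving out the filter could not change their counts.

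**Figure D1:**
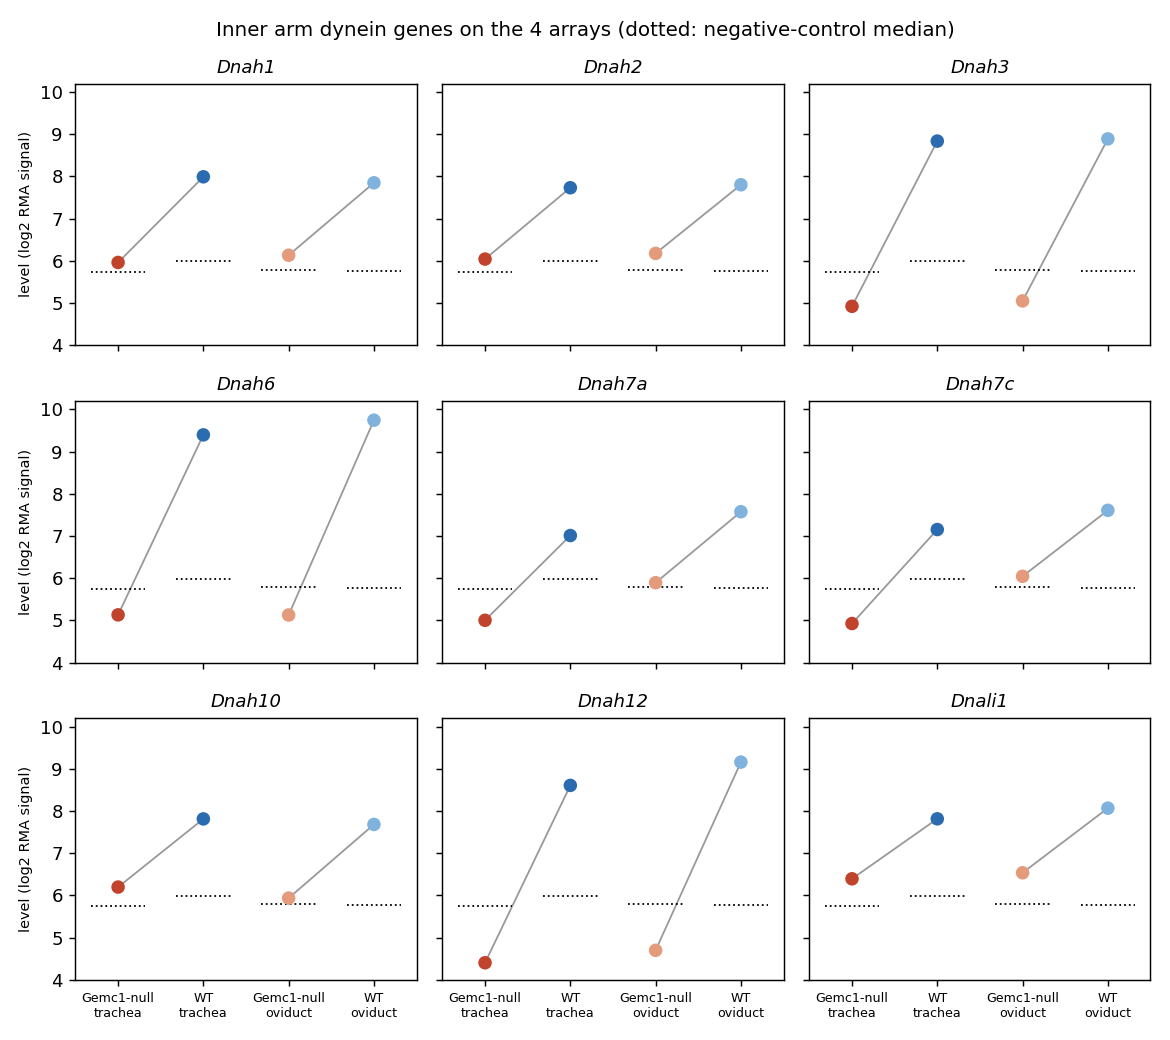
Level of each of the 9 inner arm dynein genes on each of the 4 arrays (log2 RMA signal, vertical axis), with 1 point per array, a grey line joining the Gemc1-null and WT arrays of an organ, and a dotted line at each array's negative-control median. The Gemc1-null points lie between 4.40 and 6.54 and the WT points between 7.01 and 9.74.

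By size, seen after the values, the 9 differences fell into a group of 3 and a group of 6. Dnah3, Dnah6 and Dnah12 differed by -4.27 to -3.92 in trachea and by -4.62 to -3.84 in oviduct. They encode heavy chains of arms with a single motor head, but so do Dnah1, Dnah7a and Dnah7c among the other 6. The other 6 differed by -2.23 to -1.42 in trachea and by -1.75 to -1.53 in oviduct. The group of 3 stood at 4.40 to 5.13 on the Gemc1-null trachea array and 4.70 to 5.13 on the Gemc1-null oviduct array, all below the negative-control median. On the WT arrays it stood at 8.61 to 9.40 in trachea and 8.89 to 9.74 in oviduct. The other 6 stood at 7.01 to 7.99 and 7.57 to 8.07 there. Across the 9 genes the difference went with the WT level, which is a part of it (Pearson r -0.81 in trachea and -0.96 in oviduct). Levels of different probe sets depend on their probes, so no order of expression between genes is read here.

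Dnah6 stood at 5.13 on the Gemc1-null trachea array and 9.40 on the WT trachea array. In oviduct it stood at 5.13 on the Gemc1-null array and 9.74 on the WT array. Both null levels were below the negative-control median, so the fold was taken against that median. By that bound Dnah6 was at least 12.6-fold lower in trachea and at least 15.5-fold lower in oviduct.

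Dnah12 stood at 4.40 on the Gemc1-null trachea array and 8.61 on the WT trachea array, and at 4.70 on the Gemc1-null oviduct array and 9.16 on the WT oviduct array. Both null levels were again below the negative-control median, and 76.0% of negative controls on the Gemc1-null trachea array and 71.0% on the Gemc1-null oviduct array read as high or higher. It was at least 7.28-fold lower in trachea and at least 10.3-fold lower in oviduct. Dnah3 stood at 4.92 on the Gemc1-null trachea array against 8.84 on the WT trachea array, and at 5.05 on the Gemc1-null oviduct array against 8.89 on the WT oviduct array. It was at least 8.54-fold lower in trachea and at least 8.57-fold lower in oviduct, nearly the same bound in organs taken from different mice.

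Dnah1, whose human counterpart is known for its need in the sperm tail, stood at 5.96 on the Gemc1-null trachea array and 7.99 on the WT trachea array. In oviduct it stood at 6.13 on the Gemc1-null array and 7.85 on the WT array. Its null levels lay just above the negative-control median, by 0.22 in trachea and 0.34 in oviduct. On the Gemc1-null arrays 45.1% of negative controls in trachea and 42.8% in oviduct read as high or higher. The measured folds, 4.08-fold lower in trachea and 3.29-fold lower in oviduct, are therefore against levels within the range of the negative controls.

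The paired heavy chain genes of dynein f had differences of much the same size. Dnah2 stood at 6.04 on the Gemc1-null trachea array and 7.73 on the WT trachea array, a 3.23-fold lower level, and at 6.18 on the Gemc1-null oviduct array and 7.80 on the WT oviduct array, a 3.09-fold lower level. Dnah10 stood at 6.20 on the Gemc1-null trachea array and 7.81 on the WT trachea array, 3.06-fold lower, and at 5.94 on the Gemc1-null oviduct array and 7.68 on the WT oviduct array, 3.35-fold lower. The differences of these genes therefore spanned only -1.69 to -1.62 in trachea and -1.75 to -1.63 in oviduct. Of the negative controls, 39.8 to 43.6% read as high as these genes or higher on the Gemc1-null trachea array, and 14.3 to 15.5% did so on the WT trachea array. On the Gemc1-null oviduct array 41.9 to 46.9% did so, so these folds too are against levels within the range of the negative controls.

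The related genes Dnah7a and Dnah7c were the ones whose null levels differed most between the organs. Dnah7a stood at 5.0 on the Gemc1-null trachea array and 7.01 on the WT trachea array, and at 5.89 on the Gemc1-null oviduct array and 7.57 on the WT oviduct array. Dnah7c stood at 4.92 on the Gemc1-null trachea array and 7.15 on the WT trachea array, and at 6.04 on the Gemc1-null oviduct array and 7.61 on the WT oviduct array. In trachea the null levels were below the negative-control median, and the bounds were at least 2.40-fold lower for Dnah7a and at least 2.65-fold lower for Dnah7c. On the WT trachea array 27.4% of negative controls read as high as Dnah7a or higher, and 24.5% did so for Dnah7c. On the WT oviduct array the shares were 15.7% for Dnah7a and 15.3% for Dnah7c. The trachea bounds of Dnah7a and Dnah7c therefore rest on WT levels that were themselves within the range of the negative controls. In oviduct the measured folds were 3.21-fold lower for Dnah7a and 2.96-fold lower for Dnah7c, against null levels that 47.9% and 44.5% of negative controls equalled or exceeded. The Gemc1-null oviduct array exceeded the Gemc1-null trachea array by 0.89 for Dnah7a and 1.12 for Dnah7c, while the other 7 genes differed between those arrays by -0.26 to 0.29. With the trachea levels raised to the negative-control median the excess was 0.15 for Dnah7a and 0.30 for Dnah7c. A probe set annotated to both Dnah7b and Dnah7c read 6.64 on the Gemc1-null oviduct array and 5.26 on the Gemc1-null trachea array, and its excess was 0.89 with the trachea level raised in the same way.

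Dnali1, the light chain gene, had the smallest measured difference of the 9 in either organ, but in trachea the bounds of Dnah7a and Dnah7c were smaller still. It stood at 6.39 on the Gemc1-null trachea array and 7.81 on the WT trachea array, and at 6.54 on the Gemc1-null oviduct array and 8.07 on the WT oviduct array. It was 2.68-fold lower in trachea and 2.89-fold lower in oviduct. Its null levels exceeded the negative-control median by 0.65 in trachea and 0.74 in oviduct. Still, 35.1% of negative controls on the Gemc1-null trachea array and 34.3% on the Gemc1-null oviduct array read as high or higher, against 14.3% on the WT array of trachea and 9.4% on that of oviduct.

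**Figure D2:**
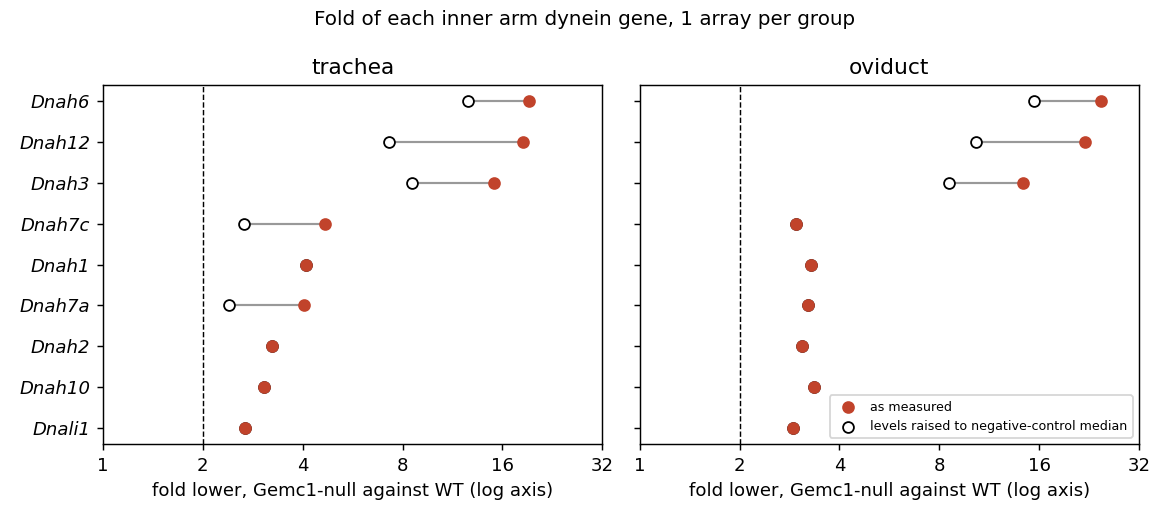
Fold by which each inner arm dynein gene was lower on the Gemc1-null array than on the WT array (horizontal log axis), in trachea and oviduct, with 1 array per group. Filled points are the measured folds, open points are the folds after levels below an array's negative-control median were raised to it, and a point with no open partner was unchanged. All 9 genes stay right of the dashed 2-fold line in both organs, with 2.40-fold for Dnah7a in trachea as the smallest value.

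Background limited the null levels of all 9 genes, since at least 35.1% of negative controls in trachea and 34.3% in oviduct read as high or higher than each of them. For the WT levels that share ran from 3.04 to 27.4% in trachea and from 2.11 to 15.7% in oviduct, with Dnah7a the highest in each organ. The null levels of 5 of 9 genes in trachea and 3 of 9 in oviduct lay below the negative-control median. After those null levels were raised to that median, 9 of 9 genes were still at least 2-fold lower in each organ. With all values raised in the same way, 6.95% of 20141 genes in trachea and 2.43% of 19691 in oviduct were at least 2-fold lower. The median of the 9 inner arm genes was then -1.69 in trachea and -1.72 in oviduct. The trachea median thus came to lie closer to the oviduct median.

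The WT levels of the inner arm genes were close in the 2 organs. The WT oviduct array exceeded the WT trachea array in 7 of 9 genes, and the difference ran from -0.14 for Dnah1 to 0.56 for Dnah7a. None of the 9 differed by 2-fold between the WT organs, against 8.47% of all genes past the filter in both. The median absolute difference of the 9 was 0.25, beside 0.23 for all genes, so the inner arm genes were no closer than other genes. Between the null organs Dnah7c alone passed 2-fold, against 10.7% of all genes, and it no longer did with levels raised to the negative-control median.

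The genotype differences of the organs lay side by side for each gene. The oviduct difference minus the trachea difference ran from -0.35 for Dnah6 to 0.66 for Dnah7c, with a median of 0.06. With levels raised to the negative-control median it ran from -0.50 for Dnah12 to 0.31 for Dnah1, and that of Dnah7c became -0.16 and that of Dnah7a -0.42, so the sign turned for both. The median absolute value was 0.26 for the 9 genes and 0.29 for all genes past the filter in both organs. The organs came from different mice and shared no array, and across the 9 genes their differences gave a Pearson r of 0.98 and a Spearman rho of 0.73. The high r rests on the distance between the group of 3 and the group of 6. Whether the organs differ in their response was not tested, since neither has a replicate.

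A limma fit over all 4 arrays, with organ as a block, tested for a genotype difference common to the organs. With 1 residual degree of freedom, a gene's own error is how far the organs disagree. The fit combines it with a prior spread drawn from all genes, weighted as 1.77 degrees of freedom. The SEs and p-values given here rest on both. None of 20970 genes passed a Benjamini-Hochberg adjusted p of 0.05 (0%, with 0 lower and 0 higher). The 9 inner arm genes had limma adjusted p-values from 0.523 to 0.676. All 9 had an unadjusted p under 0.05 in the lower direction, as did 2.7% of all genes (566 lower and 169 higher). Dnah12 had the smallest p of all genes at -4.33 (SE 0.167), and Dnah3 the next at -3.88 (SE 0.149), both with null levels under the negative-control median. The largest SE of the 9 was that of Dnah7c (-1.90, SE 0.248).

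Other parts of the inner arm were read by a list chosen by function, also with earlier results of these data known. Of its 4 measured genes 3 passed the filter, and 2 of these were at least 2-fold lower in each organ. Wdr63, also called Dnai3, an intermediate chain of dynein f, stood at 5.19 on the Gemc1-null trachea array and 7.78 on the WT trachea array, and at 5.08 on the Gemc1-null oviduct array and 8.08 on the WT oviduct array. Both of its null levels were below the negative-control median, and with them raised to it the differences were -2.04 in trachea and -2.29 in oviduct. Wdr78, also called Dnai4, another intermediate chain of that complex, had differences of -2.11 (trachea) and -1.89 (oviduct). The light chain gene Tctex1d2, also called Dynlt2b, differed by -0.35 in trachea and -0.16 in oviduct. Dnah14, a heavy chain gene of the same family, did not pass the filter in either organ and was not lower (0.05 in trachea and 0.34 in oviduct).

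Light chains that dyneins of the cytoplasm also use were different. Of the 5 that passed, only Dynlrb2 was at least 2-fold lower in each organ, at -2.84 in trachea and -2.83 in oviduct. Its null levels were below the negative-control median, and with them raised to it the differences were -2.22 and -2.54. Its close relative Dynlrb1 had differences of 0.36 (trachea) and -0.04 (oviduct), and Dynlt3 of 0.56 and 0.11. Dynlrb1 stood at 10.08 on the Gemc1-null trachea array against 9.72 on the WT trachea array.

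The outer arm list had 6 of 8 genes past 2-fold on the low side in trachea (median -1.39) and 5 of 8 in oviduct (median -2.09). Dnah5 differed by -3.83 in trachea and -4.49 in oviduct, Dnah9 by -2.99 and -3.26, and the intermediate chain gene Dnaic1 by -1.20 and -2.26. The null levels of Dnah5 and Dnah9 were below the negative-control median in both organs. The outer arm genes past the filter but short of 2-fold were Dnah17 (0.02 in trachea and 0.08 in oviduct), Dnal1 (-0.54 and -0.64) and, in oviduct, Dnah8 (-0.34). The median of the inner arm genes was lower than that of the outer arm list in trachea and higher in oviduct. That order depends on which genes are listed, and no test of the difference was possible.

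The structures to which inner arms are bound, the molecular ruler and the nexin-dynein complex, had 12 of 14 genes at least 2-fold lower in each organ (median -1.78 in trachea and -1.97 in oviduct). Among them Cfap44 and Cfap43, which tether dynein f, differed by -3.56 and -3.31 in trachea and by -4.09 and -3.02 in oviduct. Their null levels were all below the negative-control median, and with them raised the differences of Cfap44 were -3.04 in trachea and -3.56 in oviduct, those of Cfap43 -2.72 and -2.44. Ccdc39, a part of the ruler that places the inner arms, differed by -2.53 in trachea (-2.04 with the null level raised) and -2.28 in oviduct. The factors that assemble dynein arms in the cytoplasm had 6 of 14 genes at least 2-fold lower in each organ (median -0.90 in trachea and -0.82 in oviduct). They included Zmynd10 (-1.78 in trachea and -2.17 in oviduct), Dnaaf3 (-1.88 and -1.45) and Lrrc6 (-2.51 and -2.22). The null levels of Lrrc6 were below the negative-control median, and with them raised its differences were -1.75 (trachea) and -2.13 (oviduct). With levels raised to the negative-control median the assembly list had 5 of 14 in trachea.

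Cytoplasmic dyneins, which carry cargo and drive intraflagellar transport in all cells with a cilium, had 0 of 9 genes at least 2-fold lower or higher in either organ. Their median difference was 0.03 in trachea and -0.31 in oviduct. Dync2li1 and Dync2h1, subunits of the intraflagellar transport motor, differed by -0.997 and -0.72 in trachea and by -0.31 and -0.51 in oviduct. Dync1h1, the heavy chain of the cargo motor, stood at 9.80 on the Gemc1-null trachea array and 9.77 on the WT trachea array, and at 9.62 on the Gemc1-null oviduct array and 9.59 on the WT oviduct array. The difference of Dync1h1 was therefore 0.03 in each organ, while Dync2h1, the heavy chain gene of the intraflagellar transport motor, was lower in both.

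**Figure D3:**
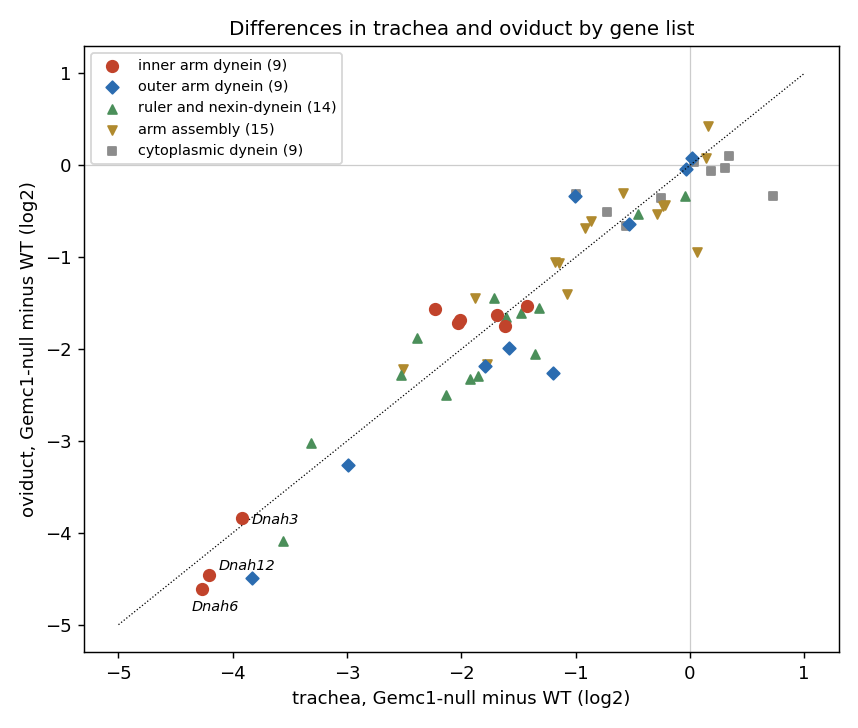
Difference between the Gemc1-null and WT arrays in trachea (horizontal axis, log2) and in oviduct (vertical axis, log2), with 1 point per measured gene of 5 lists and a dotted line of equal differences. Dnah3, Dnah6 and Dnah12 lie at the lower left, the other 6 inner arm genes lie between -2.23 and -1.42 in trachea, and the 9 cytoplasmic dynein genes lie within 0.997 of 0.

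The genes most like the inner arm genes were sought by the distance between each gene's 4 levels, centred on its own mean, and the median centred profile of the 9 genes. Among 20961 other genes the nearest were Pifo (distance 0.22), Cfap69 (0.27), Drc3 (0.28), Ccdc39 (0.28), Lrrc6 (0.29), Wdr78 (0.29), Tsnaxip1 (0.29) and Cfap46 (0.30). Drc3 belongs to the nexin-dynein complex and Cfap46 to the central pair apparatus. Pifo stood at 4.66 on the Gemc1-null trachea array and 6.65 on the WT trachea array, and at 5.02 on the Gemc1-null oviduct array and 7.10 on the WT oviduct array, with both null levels below the negative-control median. The inner arm genes themselves lay at 0.46 to 2.32 from their median profile, so that 0 of 9 were as near to it as these 8 genes.

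Markers of other cell types moved between the same arrays. Of 8 measured multiciliated cell markers, 6 in trachea were 2-fold lower or more (median -1.92) and 7 in oviduct (median -2.45). On the trachea arrays the 9 general epithelial markers ran from 6.82 to 9.65 (median 7.22) on the Gemc1-null array and from 7.88 to 10.26 (median 8.63) on the WT array, and 7 of 9 were at least 2-fold lower. Airway secretory markers were at least 2-fold lower in 9 of 9 genes in trachea (median -5.01) and lymphocyte markers in 7 of 7 (median -3.49), while basal cell markers were at least 2-fold higher in 4 of 4 (median 2.57). Their part in the inner arm result in trachea was not tested. In oviduct the general epithelial markers had a median of 10.03 on the Gemc1-null array and 9.60 on the WT array, and 0 of 9 differed by 2-fold. The 4 oviduct secretory markers were also within 2-fold there (median difference 0.59). Of the 5 airway secretory markers past the filter in oviduct, 2 were at least 2-fold higher, Agr2 by 1.43 and Scgb3a1 by 1.16 on the log2 scale.

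Ovary somatic markers were at least 2-fold lower in 6 of 6 measured genes in oviduct (median -3.68), and in 5 of 6 with levels raised to the negative-control median. They ran from 4.75 to 8.12 on the Gemc1-null oviduct array and from 6.00 to 12.35 on the WT oviduct array. Their part in the inner arm result in oviduct was not tested. Ovgp1, the oviductal glycoprotein, stood at 12.84 on the Gemc1-null oviduct array and 12.79 on the WT oviduct array. Scgb1a1, the club cell secretoglobin, stood at 8.39 on the Gemc1-null trachea array and 12.74 on the WT trachea array. It was picked after its values were seen, and of the 9 airway secretory markers 3 read under the median of negative controls on the Gemc1-null trachea array (Scgb3a2 at 4.77, Reg3g at 5.19 and Agr2 at 5.70), while Bpifb1 (5.93) and Bpifa1 (6.02) were just above it. Cyp2f2 stood at 11.59 on that array, and at 10.84 on the Gemc1-null oviduct array.

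**Figure D4:**
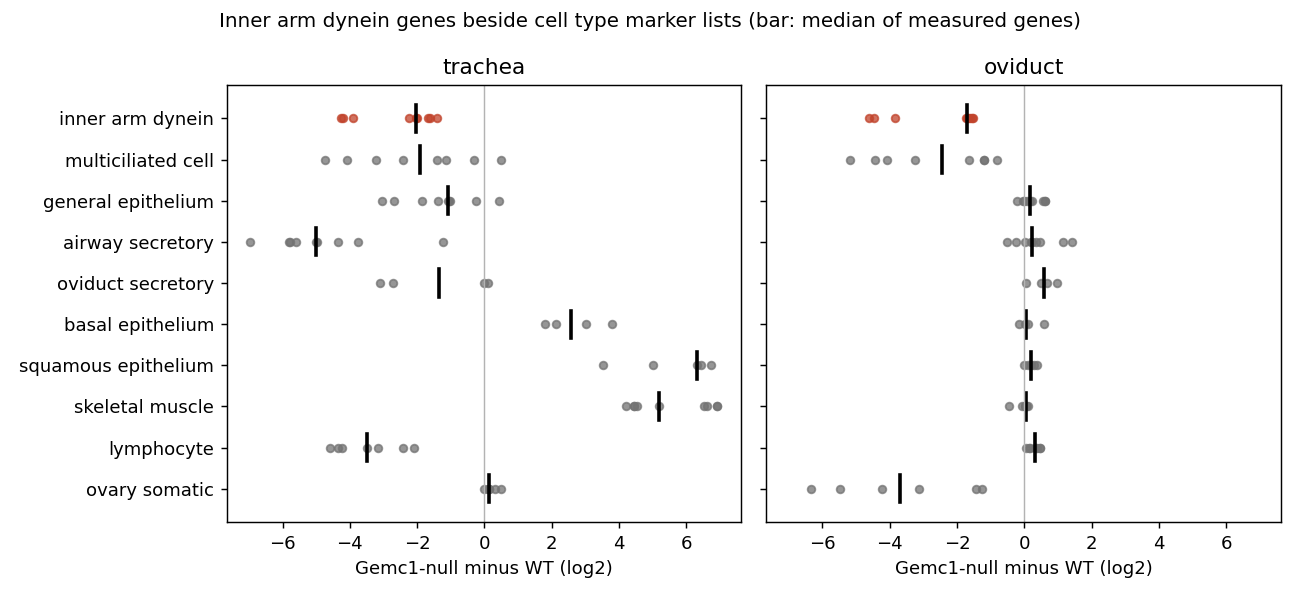
Difference between the Gemc1-null and WT arrays (horizontal axis, log2) in trachea and in oviduct for the 9 inner arm dynein genes and 9 marker lists, with 1 point per measured gene and a bar at each median. In trachea most marker lists shift, with medians from -5.01 for airway secretory to 6.30 for squamous epithelium, while in oviduct the general epithelium median is 0.16, the ovary somatic median -3.68 and the inner arm median -1.72.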

How the data were processed

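Total RNA of 4 samples was labelled with biotin as sense-strand cDNA and hybridised to 1-colour Affymetrix arrays, per the labels' protocols. The deposited values were made with RMA on a log2 scale, per the submitters' processing notes, with no version or settings stated. A further log2 had been applied: raising 2 to each value gave numbers of 6 significant digits in 100% of cells (relative tolerance 1e-09), as were 0.044% of the values themselves. Levels here are these back-transformed log2 RMA signals. No raw intensities were used.

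Of 72688 probe sets, 31219 were annotated to 1 gene, 1531 listed several genes or could not be resolved, and symbols were updated through a RefSeq table (GRCm38.p6; 31217 matched and 2 kept the annotation's symbol). For the 30674 genes the probe set with the highest mean was used. A gene passed in an organ at or above the array's median (percentile 50) on at least 1 of its arrays. The fit used limma 3.58.1 (R 4.3.3) with organ as a block, adjusted by Benjamini-Hochberg at 0.05, and was tested on simulated data. Other steps used Python 3.11.15 with pandas 2.3.3, and promoter windows were aligned globally with Biopython 1.88.

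Named genes were the 9 members, the 8 nearest by profile and, in each of 7 pathway lists, the 3 with the largest absolute difference. Gmnc was named as the targeted gene. Dync1h1, Dnah8, Dnah14, Dnah17, Dnal1, Ovgp1 and Scgb1a1 were named after their values were seen. So were the airway secretory markers Scgb3a1, Scgb3a2, Bpifa1, Bpifb1, Reg3g, Cyp2f2 and Agr2. The members and lists were chosen with earlier results of these data known. Of the listed genes, some were not analysed here, among them Dnah7b, Tcte3, Dnaaf8, Dnaaf9, Foxj1, Lhcgr and Cyp19a1. The promoter motifs were chosen after the values, and the inverted repeat with GTTGC arms after the sequences, had been seen.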

Additional observations from a re-analysis of the deposited data

Results flagged for a closer look

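Dynlrb1, a dynein light chain gene, was higher on the Gemc1-null array in trachea (0.36) and lower in oviduct (-0.039), and Dync1i1, an intermediate chain gene of cytoplasmic dynein, likewise differed by 0.73 in trachea and -0.33 in oviduct (0.21 in trachea with levels raised to the negative-control median). With 1 array per group the differences between the organs were not tested, and both are within 2-fold. None of the 9 inner arm genes had opposite directions in the organs.

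A probe set annotated to both Dnah7b and Dnah7c was assigned to neither gene and used in no comparison. It stood at 5.26 on the Gemc1-null trachea array and 7.31 on the WT trachea array, and at 6.64 on the Gemc1-null oviduct array and 7.90 on the WT oviduct array. Its level on the Gemc1-null oviduct array was above that on the Gemc1-null trachea array, as it was for Dnah7a and Dnah7c, and the trachea level was below that array's negative-control median of 5.74. The excess was 1.37, and 0.89 with the trachea level raised to that median.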

How the results depend on the processing

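The counts of inner arm genes at least 2-fold lower were recomputed under 6 alternatives: folds of 1.5 and 3, levels raised to the negative-control median, the mean over a gene's probe sets, arrays centred on their medians, and no level filter. They stayed at 8 to 9 of 9 genes in trachea and 7 to 9 in oviduct and in both organs, and the values short of 9 belong to the 3-fold threshold. A fold of 1.5 could not lower counts that were already 9 of 9. Centring moved the median difference only from -2.03 to -2.05 in trachea and from -1.72 to -1.75 in oviduct. The shares of all genes at folds of 1.5 and 3 are not given here, so those counts have no background beside them. The median differences ran from -2.05 to -1.69 in trachea and from -1.75 to -1.72 in oviduct under 4 alternatives. Each of the 9 genes had 1 probe set and passed the filter in both organs. Averaging probe sets or leaving out the filter therefore could not change their values, so those alternatives tell nothing about stability. Of 54 single-gene values under alternatives 0 reversed, and 8 moved by more than 1.5 times, all of them with levels raised to the negative-control median: Dnah3, Dnah6 and Dnah12 in both organs, and Dnah7a and Dnah7c in trachea. The limma fit called 0 genes with an intensity trend, without the organ block, with no level filter and with probe sets averaged, and the smallest adjusted p among the 9 genes then ran from 0.179 to 0.529. No paired analysis was possible because, with 1 array per group, there were no replicate numbers to pair; the organ block of the fit sets each Gemc1-null array against the WT array of its organ. No array could be left out, since no residual degree of freedom would remain. Background, not depth, limits the null levels.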
